A study of Homo sapiens with 24 samples.

Results

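The mitochondrial ribosomal protein mRNAs were followed in HepG2 cells, an established human liver cancer line, before and during a transcription block. Members were chosen by gene symbol alone, as protein-coding genes named MRPL or MRPS followed by a number and at most 1 letter (A to C). The rule found 78 of the 58676 gene rows, 49 MRPL and 29 MRPS genes, spread over 21 chromosomes. Cells received a control siRNA (siControl) or an siRNA that targets 1 of the RNA-binding proteins IGF2BP1, IGF2BP2 and IGF2BP3 (siIGF2BP1, siIGF2BP2, siIGF2BP3), and were re-seeded and cultured for 48 h. Actinomycin D at 5 µg per ml was then present for the last 0, 3 or 6 h before collection in each of the 4 conditions, and 2 libraries were made for each of the 12 groups. Replicates are called independent in the study, and each plate was split into 3 after transfection, but whether a replicate began from its own transfection is not stated. The p-values measure the spread between these libraries. The comparison of conditions asks whether loss of a reader protein changes the abundance or the lifetime of these mRNAs.

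The mitochondrial ribosome (mitoribosome) is a separate translation machine inside mitochondria that makes the few proteins encoded by mitochondrial DNA, all of them subunits of the respiratory chain and ATP synthase. Its RNAs come from mitochondrial DNA, whereas all of its proteins are encoded in the nucleus, translated in the cytosol and imported. Some of these proteins have counterparts in bacterial ribosomes, and others are found only in mitochondria. A complete particle holds a copy of nearly every protein of the set, and liver cells, which rely on oxidative metabolism, keep large numbers of mitochondria. Symbols follow history rather than structure: MRPS30 and MRPS18A are built into the large subunit, and MRPS36 is now counted as a part of a dehydrogenase complex.

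Depth was 31843504 to 74252494 gene reads per library, with 50889 to 119088 reads of the ERCC synthetic RNAs that set the scale for decay. The siRNA targets fell at 0 h against siControl, with 21.1% of IGF2BP1, 26.2% of IGF2BP2 and 35.5% of IGF2BP3 mRNA left in their own knockdowns (adjusted p at most 7.83e-25, edgeR). The hepatocyte marker APOB was at a median of 37760 CPM (counts scaled to a fixed library total) over the 24 libraries and HNF4A at 302, whereas the leukocyte marker PTPRC had a median of 0. In bulk libraries, fewer expressing cells and less RNA per cell cannot be told apart.

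Promoters were examined because many nuclear genes for mitochondrial proteins share binding letters for ETS-family factors, NRF1 or YY1. RefSeq windows on GRCh38.p14, from 250 bases before to 50 bases after the gene start, were matched for 69 members, and 9 had no entry. The ETS letters CCGGAAG, on either strand, were in 29 of these 69 windows (42.0%), against 10.7% of all 27305 promoters and 20.6% of the 9314 matched promoters of coding genes tested here. The YY1 letters AAGATGGC were in 20 windows (29%), against 3.0% of all promoters and 5.8% of the tested coding genes. The NRF1 letters GCGCANGCG were in 13 windows (18.8%), against 8.0% and 15.8%, and TATAAA was in 2 windows (2.9%), against 12% and 5.2%. At least 1 of the ETS, YY1 and NRF1 strings was present in 47 of the 69 windows (68.1%). A match of letters is a description and not a bound site, and CCGGAAG, GCGCANGCG and AAGATGGC do not contain one another.

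In 16 members the YY1 letters read AAGATGGC on the coding strand, and in 12 of these 16 the ATG inside the string was an annotated start codon. Bases around the gene start are shown for the members with the largest loss under actinomycin D that hold these letters, with any ETS, NRF1 or YY1 string in capitals, from chr5:44808867-44808967 (plus strand) for MRPS30, chr15:88467373-88467468 (minus strand) for MRPL46, chr5:1799838-1799917 (minus strand) for MRPL36 and chr9:101398588-101398698 (minus strand) for MRPL50.
MRPS30: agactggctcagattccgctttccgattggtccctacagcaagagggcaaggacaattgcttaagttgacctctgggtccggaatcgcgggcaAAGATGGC
MRPL46: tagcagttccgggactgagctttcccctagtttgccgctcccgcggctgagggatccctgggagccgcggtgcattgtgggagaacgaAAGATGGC
MRPL36: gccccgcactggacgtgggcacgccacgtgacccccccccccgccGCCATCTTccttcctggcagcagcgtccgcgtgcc
MRPL50: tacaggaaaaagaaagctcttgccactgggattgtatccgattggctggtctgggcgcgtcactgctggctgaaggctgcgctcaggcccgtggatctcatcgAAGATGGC
In the same form, the 80 bases before the start are shown for MRPL18, which with MRPL50 was higher in every knockdown, at chr6:159789732-159789811 (plus strand), and for members with the smallest loss, MRPL37 at chr1:54200087-54200166 (plus strand), MRPL33 at chr2:27771639-27771718 (plus strand), MRPL24 at chr1:156741089-156741168 (minus strand) and MRPL11 at chr11:66438849-66438928 (minus strand).
MRPL18: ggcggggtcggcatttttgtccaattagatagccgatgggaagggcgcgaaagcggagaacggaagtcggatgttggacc
MRPL37: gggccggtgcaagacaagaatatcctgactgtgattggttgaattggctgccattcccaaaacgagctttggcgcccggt
MRPL33: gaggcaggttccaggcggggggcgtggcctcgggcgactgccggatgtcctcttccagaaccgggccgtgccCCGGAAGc
MRPL24: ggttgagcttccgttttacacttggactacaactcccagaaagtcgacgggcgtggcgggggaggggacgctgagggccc
MRPL11: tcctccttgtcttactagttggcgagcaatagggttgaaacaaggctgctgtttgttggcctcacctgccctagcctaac
Of these 9 stretches, the YY1 string stands in the first 4, by choice, and the ETS string in MRPL33 only. The median change over 6 h in siControl, described below, was -0.77 on the log2 scale in 19 members with the YY1 letters. It was -0.70 in 49 without, and the quartiles were -1.37 to -0.42 with the letters and -1.05 to -0.43 without. These ranges overlapped, and a link between the string and loss was not tested.

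Gene starts of members often lay close to the start of another coding gene on the opposite strand. Of the 78 members, 27 (34.6%) had such a start within 1000 bases, overlapping starts included, against 18.8% of the tested coding genes. Some partners were genes of respiration and mitochondrial upkeep. NDUFS6 stood beside MRPL36 and NDUFB5 beside MRPL47 (both complex I subunits). TWNK (the mitochondrial DNA helicase) stood beside MRPL43 and SARS2 (the mitochondrial seryl-tRNA synthetase) beside MRPS12. These were picked from the partners of all 27 members, which also included PELI3, TCP1, EME1, SLC7A7, SKA3 and ZNF189. How common mitochondrial partners are among all genes was not counted. MRPL46 and MRPS11 were the only pair of members that faced away from each other, with annotated starts 63 bases apart on chromosome 15. Member transcripts were short, with a median length of 1260 bases against 3348 for tested coding genes and a median 3′ noncoding stretch of 465 against 1321 bases.

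Levels were compared between members as RPKM computed here (reads scaled to the gene reads of the library and to each kilobase of canonical transcript) in siControl at 0 h. The members had a median of 34.7 RPKM, with 10th and 90th percentiles of 8.76 and 79.4 and 46 of 78 between 30 and 120, whereas the median of all tested genes was 7.38. The median was 37.4 for MRPL and 31.3 for MRPS genes, 12 for the 24 mitoribosome assembly factors, 14.5 for the 14 mitochondrial translation factors, 60.9 for nuclear respiratory chain subunits and 537 for cytosolic ribosomal proteins.

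The highest level was that of MRPS34, a mitochondria-specific protein of the small subunit, at 127 and 133 RPKM in the 2 libraries. MRPL37, MRPS15 and MRPS26 followed at 111 ± 1.90, 109 ± 2.06 and 108 ± 6.25 RPKM (SD, n = 2). These 3 did not differ beyond their spread, and over the whole order 45 of 77 neighbouring pairs were within the larger SD of the pair. The lowest were MRPS28 at 4.62 ± 0.173, MRPS17 at 1.67 ± 0.0512, MRPL38 at 1.21 ± 0.112 and MRPS24 at 0.272 ± 0.0150 RPKM (SD, n = 2). All 4 low members share annotated exon sequence with another gene on the same strand (35.8%, 22.4%, 41.1% and 23.3% of their exon bases), so reads there may have been set aside as ambiguous, and the part of this in their low counts was not tested. MRPS24 stayed below the count filter and was left out of every test, so that 77 members were tested.

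**Figure D1:**
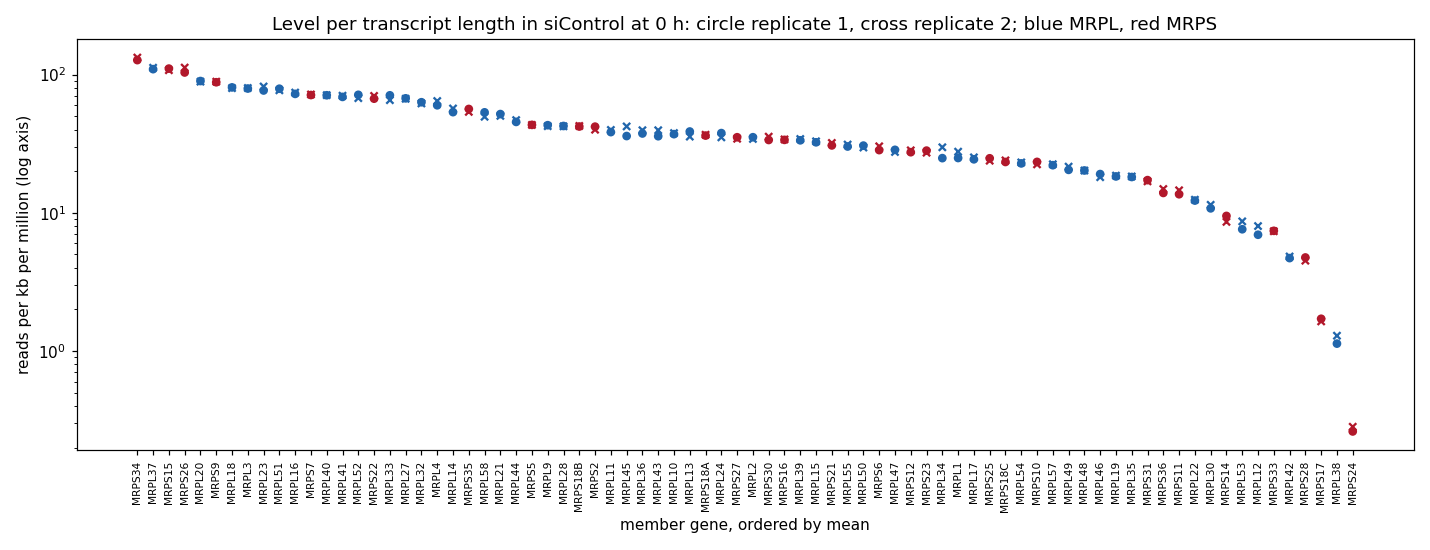
Level per transcript length of the 78 members in siControl at 0 h, in RPKM on a log axis, with each of the 2 libraries shown and MRPL genes in blue and MRPS genes in red. The median is 34.7, 46 of the 78 lie between 30 and 120, and the lowest 4 run from 4.62 down to 0.272.

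Under actinomycin D in siControl cells, the median loss of the mitoribosomal mRNAs was somewhat smaller than that of all genes, and members covered a wide range. On the ERCC scale, with a line fitted through 0, 3 and 6 h, 67 of 77 members fell and 0 rose (edgeR, adjusted p under 0.05 over 13136 genes), where 80.3% of all genes fell. The median change over 6 h was -0.70 on the log2 scale for members and -0.88 for all genes. Member values ran from -3.03 for MRPS17 to 0.06 for MRPL23. On scales that measure each mRNA against the rest of the RNA, the calls split differently: 22 members fell and 34 rose with TMM scaling, and 39 fell and 19 rose with library-size scaling, while the median of all genes moved from -0.88 to -0.02 and -0.34. The member median was 0.18 above that of all genes on all 3 scales. A change of scale moves all genes by nearly the same amount, so this agreement is not a separate check. Without any 1 siControl library, 61 to 72 members fell.

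Of the fastest losses named here, all but that of MRPS17 were in mRNAs for large-subunit proteins. The smallest losses, named below, were in mRNAs of the same subunit. MRPS30, a mitochondria-specific protein of the large subunit, kept 34.9% and 35.1% of its 0 h mean at 3 h and 16.8% and 13.1% at 6 h (log2 change -2.74, SE 0.12, adjusted p 1.63e-14). MRPL46, also mitochondria-specific, kept 44.4% and 40.7% at 3 h and 23% and 18.9% at 6 h (-2.26, SE 0.13, adjusted p 1.11e-12). MRPL50 kept 52.0% and 50.5% at 3 h and 28.3% and 26.9% at 6 h (-1.86, SE 0.08, adjusted p 1.79e-14). In all 3, both libraries at 6 h lay below both at 3 h. MRPL36, the homologue of a small bacterial zinc-binding protein, changed by -1.87 (SE 0.17, adjusted p 1.56e-09). MRPS17 (-3.03, SE 0.33) and MRPL53 (-2.09, SE 0.34) also fell, but were thinly covered at 2.67 and 3.60 CPM, and MRPL53 shares 72.9% of its exon bases with a same-strand neighbour.

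At the other end, several proteins of the large subunit, most of them with a bacterial counterpart, showed little or no loss. MRPL23 stood at 105% and 103% at 3 h and at 112% and 96.3% at 6 h (log2 change 0.06, SE 0.08, adjusted p 0.529). MRPL11, which with the stalk forms the factor-binding region, was at 106% and 103% and then at 104% and 94.1% (-0.01, SE 0.08, adjusted p 0.891). MRPL24 (-0.03), MRPL33 (-0.15), MRPL37 (-0.16) and MRPL13 (-0.18) also missed the threshold, with SE values of 0.08 to 0.12. With TMM and with library-size scaling all 6 were called rises. Without siControl 0 h replicate 2, MRPL13, MRPL33 and MRPL37 were called falls.

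Loss also differed among members with a listed role, among relatives and between gene neighbours. Of the stalk proteins that recruit translation factors, MRPL10 changed by -1.41 (SE 0.09) and MRPL12 by -0.56 (SE 0.14). MRPL12 was thinly covered, at 6.26 and 7.20 CPM in siControl at 0 h, and shares 69.5% of its exon bases with a same-strand neighbour. MRPL58, a peptidyl-tRNA hydrolase that frees stalled ribosomes, changed by -1.39 (SE 0.12), and MRPL45, which holds the ribosome to the inner membrane, by -1.06 (SE 0.14). Among the 3 relatives of bacterial protein S18, MRPS18A changed by -1.24 (SE 0.10), MRPS18C by -0.83 (SE 0.11) and MRPS18B by -0.62 (SE 0.11). The divergent neighbours MRPL46 and MRPS11 were also unlike, with -2.26 for MRPL46 and -0.50 (SE 0.09) for MRPS11, whose libraries kept 75.4% and 65.7% at 6 h.

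**Figure D2:**
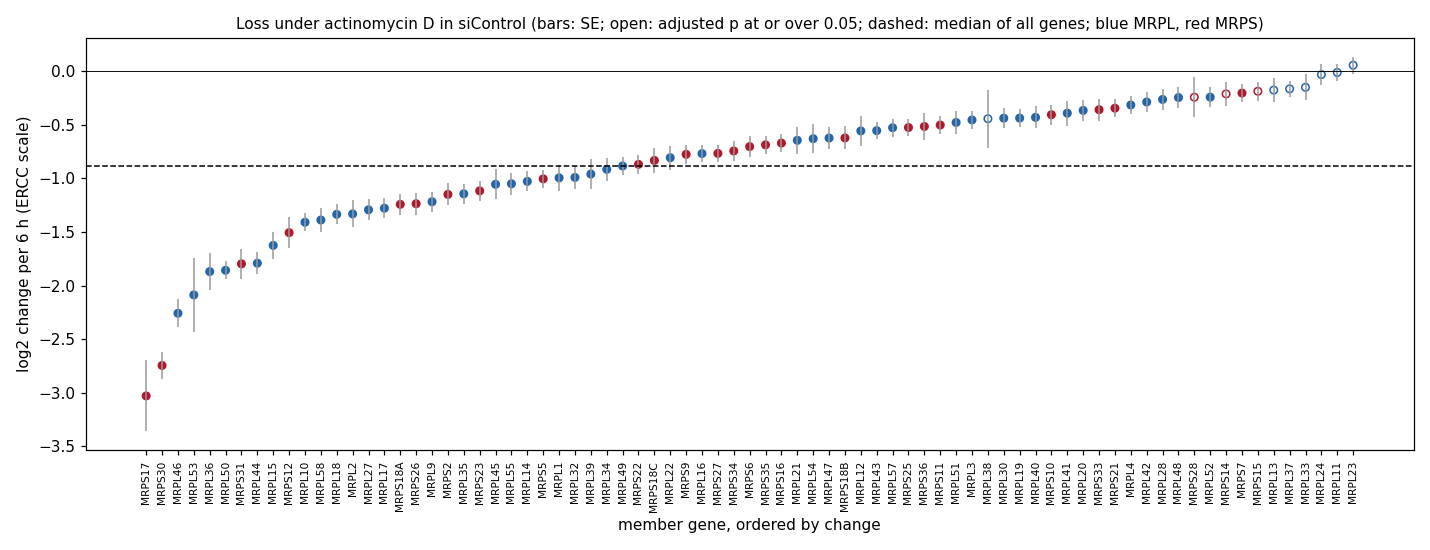
Change over 6 h of actinomycin D in siControl for the 77 tested members (log2, ERCC scale), ordered by value, with SE bars and open circles for members at or over an adjusted p of 0.05. The dashed line marks the median of all genes at -0.88, and members run from -3.03 to 0.06.

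By structural class the medians lay close together, at -0.77 for 51 proteins of the large subunit and -0.70 for 25 of the small subunit. They were -0.77 for large-subunit proteins listed with a bacterial counterpart and -0.76 for those listed as mitochondria-specific, and -0.67 and -0.76 for the small subunit. The mitochondria-specific lists held MRPS18A and MRPS18B, although these are relatives of bacterial protein S18. Across the 77 members, Spearman's rho of the siControl change was -0.03 with transcript length, 0.01 with the length of the 3′ noncoding stretch, -0.15 with coding length, 0.15 with exon number, 0.00 with GC content and 0.08 with level. These are descriptions over genes, which are not independent replicates.

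The other parts of the pathway spanned both sides of the members. In siControl, 3 of 79 cytosolic ribosomal protein mRNAs fell and 1 rose (median 0.03), and 16 of 76 nuclear respiratory chain subunits fell and 0 rose (median -0.09). Of the mitochondrial translation factors, 13 of 14 fell (median -0.58), as did 4 of 5 mitoribosomal proteins without an MRP symbol (DAP3, PTCD3, CHCHD1, AURKAIP1 and GADD45GIP1, median -0.47). Larger losses were seen in the assembly factors, where 23 of 24 fell (median -1.44), and in the mRNAs encoded by mitochondrial DNA, where 13 of 13 fell (median -1.82). No p is given for these differences between lists, which are described by their counts and medians.

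Expressed as half-lifetime under first-order decay, the member median in siControl was 9.53 h, and choosing 1 library per time point gave medians between 7.73 and 12.6 h. For all genes the median was 6.76 h (5.67 to 8.33 h). The lower quartiles were 5.73 h for members and 3.23 h for all genes, whereas the upper quartiles were close, at 19.3 and 18.5 h. MRPS30 had a half-lifetime of 2.08 h (1.96 to 2.21 h over the library choices), MRPL46 of 2.54 h (2.23 to 2.96 h), MRPL50 of 3.17 h (2.85 to 3.60 h) and MRPL58 of 4.90 h (3.97 to 6.56 h). In 3 members, MRPL11, MRPL23 and MRPL24, no fall was measured and no half-lifetime could be set. In all, 8 of 77 members were under 4 h, where 4169 of the 13136 genes tested were. Of the members, 14 were over 24 h or did not fall, where 2808 of the 13136 genes did so. No fall was measured in 1226 of the 13136 genes.

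Loss was also read in each part of the time course. In the first 3 h of block, 43 members fell, with a median of -0.27, where 61.3% of all genes fell (median -0.44). Between 3 and 6 h, 64 members fell, with a median of -0.43, where 64.9% of all genes fell (median -0.42). The difference of late minus early loss had a median of -0.19 for members and -0.03 for all genes. Without siControl 0 h replicate 1 these medians were -0.29 and -0.13, and without 0 h replicate 2 -0.09 and 0.06. By the test of that difference, 3 members were lost faster late, where 1.64% of all genes were, and 1 was lost faster early, where 10.9% of all genes were.

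The 3 members with faster late loss were MRPS26 (-0.47, SE 0.15, adjusted p 0.0174), MRPL39 (-0.51, SE 0.17, adjusted p 0.0278) and MRPL21 (-0.49, SE 0.17, adjusted p 0.0330, all edgeR). MRPL21 was at 98.1% and 91.2% at 3 h and at 68.0% and 59.8% at 6 h. MRPL39 was at 85.1% and 85.6% at 3 h and then at 57.6% and 45.1%. MRPL36 had the most negative value of all members but missed the threshold (-0.53, SE 0.20, adjusted p 0.0656). MRPL53 showed the opposite order (1.40, SE 0.48, adjusted p 0.0325). These calls were fragile: without siControl 3 h replicate 1 or 3 h replicate 2 there were 0, without 0 h replicate 2 or 6 h replicate 2 there was 1, without 6 h replicate 1 there were 7 and without 0 h replicate 1 there were 11. With TMM scaling 32 members were lost faster late and 1 faster early, and with library-size scaling 21 and 2. No share of all genes is given beside these counts, so they are not read as a trait of the members.

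Before actinomycin D, the knockdowns shifted single members by small amounts. All 3 comparisons share the siControl libraries, so their calls are not independent. In siIGF2BP1 cells 16 of 77 members were higher and 2 lower than siControl (edgeR on the TMM scale, adjusted p under 0.05), where 9.43% of all genes were higher and 6.5% lower. In siIGF2BP2 cells 7 members were higher and 0 lower, where 6.65% of all genes were higher and 5.47% lower. DESeq2 also placed 0 lower there, and 17 members had an unadjusted p under 0.05 in either direction. Fitted on only the 4 libraries compared, 7 members were higher and 5 lower in siIGF2BP2. In siIGF2BP3 cells 4 members were higher and 1 lower, where 4.93% of all genes were higher and 4.47% lower. The member medians were 0.05, 0.03 and 0.04 on the log2 scale, with 0.01, 0.02 and 0.00 for all genes. On the ERCC scale the calls were 2 higher and 1 lower, 5 and 0, and 3 and 0. With library-size scaling siIGF2BP1 had 11 higher and 3 lower. The counts by unadjusted p, from the 4 libraries alone and on these scales are given without a share of all genes. They are not read as traits of the members.

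MRPL18 and MRPL50 were the members called higher in all 3 knockdowns. The share of all genes called higher in all 3 was not counted, so this overlap is not read as a trait of the members. MRPL18, the relative of a bacterial protein that binds 5S ribosomal RNA, stood at 70.1 and 68.9 CPM in siControl at 0 h. It stood at 96.5 and 93.0 CPM in siIGF2BP1, at 91.7 and 93.2 in siIGF2BP2 and at 84.0 and 89.6 in siIGF2BP3. No knockdown library overlapped the siControl libraries. The log2 changes were 0.45 (SE 0.05, adjusted p 3.12e-09), 0.41 (SE 0.05, adjusted p 2.42e-08) and 0.32 (SE 0.05, adjusted p 8.59e-06).

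MRPL50, a mitochondria-specific protein of the large subunit, was at 91.4 and 88.1 CPM in siControl. It was at 114 and 113 CPM in siIGF2BP1, at 108 and 112 in siIGF2BP2 and at 113 and 117 in siIGF2BP3. Again the groups did not overlap, and the log2 changes were 0.34 (SE 0.05, adjusted p 6.34e-07), 0.29 (SE 0.05, adjusted p 1.05e-05) and 0.36 (SE 0.05, adjusted p 6.60e-07). Both members kept their call on the ERCC scale and without any 1 of the libraries compared.

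MRPL34, a small large-subunit protein with a bacterial counterpart, was at 17.0 and 20.3 CPM in siControl, 24.4 and 22.5 in siIGF2BP1, 23 and 21.4 in siIGF2BP2 and 25.3 and 20.2 in siIGF2BP3. Its changes were 0.33 (SE 0.09, adjusted p 0.00542), 0.25 (SE 0.09, adjusted p 0.0510) and 0.29 (SE 0.09, adjusted p 0.0255), and 1 siIGF2BP3 library overlapped siControl. MRPL17 was the member lower in more than 1 knockdown, at 50.3 and 51.7 CPM in siControl against 42.4 and 42.2 in siIGF2BP1 (-0.27, SE 0.05, adjusted p 2.94e-04) and 44 and 45.5 in siIGF2BP3 (-0.19, SE 0.05, adjusted p 0.0181). In siIGF2BP2 it was at 48.3 and 46.7 CPM (-0.10, adjusted p 0.253). MRPL10 of the stalk was lower in siIGF2BP1, with 47.9 and 51.0 CPM against 58.0 and 58.7 (-0.24, SE 0.05, adjusted p 4.00e-04).

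The remaining named rises were smaller. In siIGF2BP1 they were MRPL58 (0.24), MRPL11 (0.20) and MRPL41 (0.20). In siIGF2BP2 they were MRPL43 (0.22), MRPL27 (0.21), MRPS18B (0.17) and MRPL11 (0.13), and in siIGF2BP3 MRPS26 (0.14). Leaving out any 1 of the 4 libraries compared left 7 to 11 called members in siIGF2BP1, 2 to 4 in siIGF2BP2 and 2 to 4 in siIGF2BP3. Of the named calls, MRPL18, MRPL50, MRPL11, MRPL17 and MRPL10 in siIGF2BP1 and MRPL18 and MRPL50 in the other two held without each library.

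**Figure D3:**
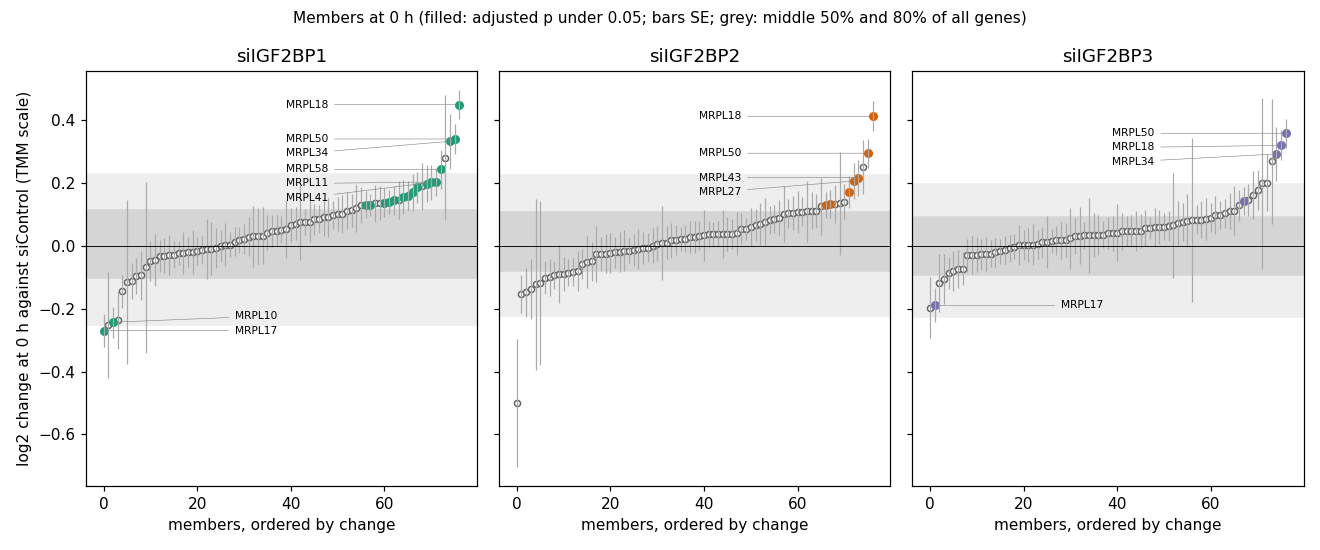
Change of the 77 tested members at 0 h in each knockdown against siControl (log2, TMM scale), ordered within each panel, with SE bars, filled circles for adjusted p under 0.05 and grey bands for the middle 50% and 80% of all genes. Called members number 18, 7 and 5 from left to right, and MRPL18 and MRPL50 stand near the top of each panel.

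**Figure D4:**
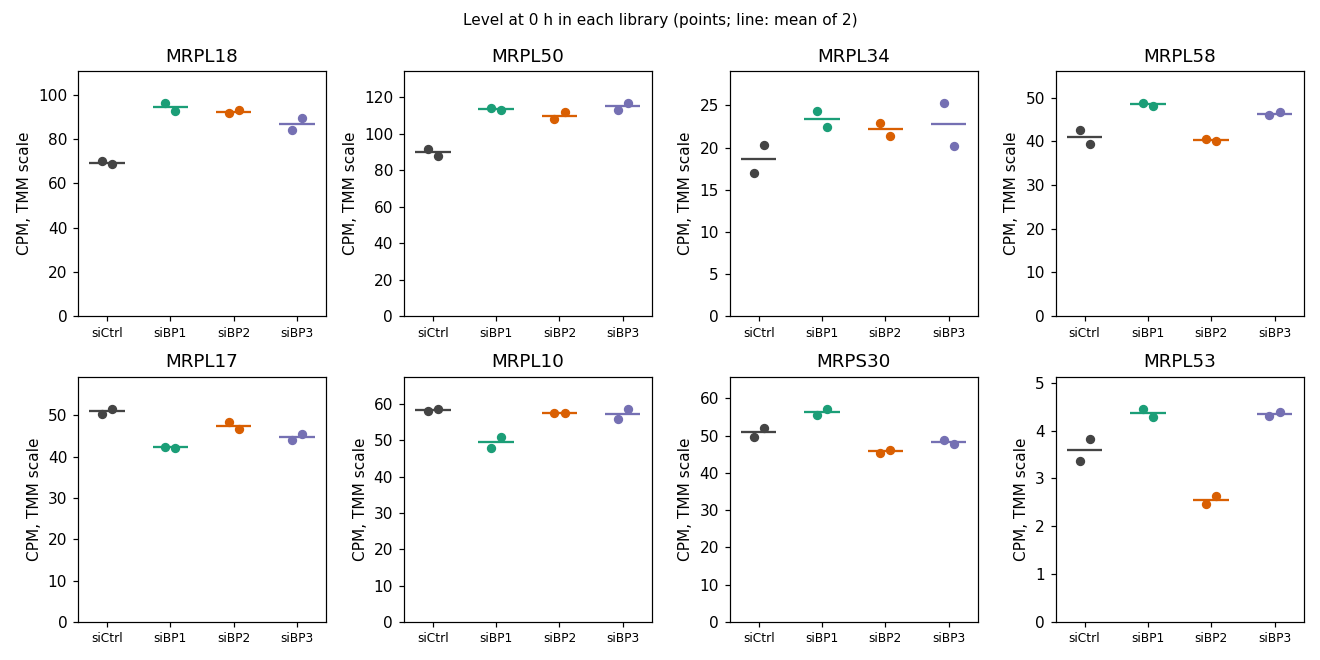
CPM at 0 h on the TMM scale in both libraries of each condition for 8 members, with lines at the means. MRPL18 and MRPL50 are higher in all 6 knockdown libraries than in siControl, MRPL10 is lower in siIGF2BP1, and MRPL53 is lowest in siIGF2BP2.

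By class, the large-subunit proteins listed as mitochondria-specific, MRPS18A included, had 6 of 22 higher and 0 lower in siIGF2BP1 (median 0.11). The large-subunit proteins listed with a bacterial counterpart had 5 of 29 higher and 2 lower (median 0.05). In the small subunit, 5 of 25 were higher and 0 lower (median 0.04). Among all genes, 9.43% were higher and 6.5% lower in siIGF2BP1. Other groups of the pathway were counted in the same way. In siIGF2BP1 4 of 14 translation factors were higher and 0 lower, 3 of 24 assembly factors were higher and 0 lower, and 5 of 76 nuclear respiratory chain subunits were higher and 5 lower. Of the cytosolic ribosomal protein mRNAs, 8 of 79 were lower there and 0 higher, against 1 lower and 0 higher in siIGF2BP2. Of the mRNAs encoded by mitochondrial DNA, 3 of 13 were higher in siIGF2BP1. In siIGF2BP2, 7 of them were higher and 1 lower, where 6.65% of all genes were higher and 5.47% lower. In siIGF2BP3, 1 of them was higher, where 4.93% of all genes were.

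The knockdowns were also compared with each other at 0 h. In siIGF2BP2 against siIGF2BP1, 9 members were called, 2 higher and 7 lower, where 18.7% of all genes were called. In siIGF2BP3 against siIGF2BP1, 5 were called, 1 higher and 4 lower, where 14.3% of all genes were called, and in siIGF2BP3 against siIGF2BP2 2 were called, both higher, where 9.19% of all genes were called. On the ERCC scale the splits were 2 higher and 1 lower, 1 and 0, and 0 and 0, and the median of all genes moved from 0.01 to 0.12 in the first and from -0.01 to 0.11 in the second of these comparisons.

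MRPL58, the rescue factor, was at 48.8 and 48.1 CPM in siIGF2BP1, 46.1 and 46.6 in siIGF2BP3, 40.5 and 40.2 in siIGF2BP2 and 42.6 and 39.4 in siControl. It was lower in siIGF2BP2 than in siIGF2BP1 (-0.27, SE 0.06, adjusted p 0.00182) and higher in siIGF2BP3 than in siIGF2BP2 (0.20, SE 0.06, adjusted p 0.0371). MRPS30 was at 55.5 and 57.3 CPM in siIGF2BP1, above 45.3 and 46.2 in siIGF2BP2 (-0.30, SE 0.06, adjusted p 3.51e-04) and 48.9 and 47.8 in siIGF2BP3 (-0.22, SE 0.06, adjusted p 0.0119). Its siControl libraries, at 49.6 and 52.1 CPM, lay between, and neither siIGF2BP1 (adjusted p 0.104) nor siIGF2BP2 (adjusted p 0.105) passed the test against them. MRPL10 was higher in siIGF2BP2 (0.22, SE 0.05, adjusted p 9.92e-04) and siIGF2BP3 (0.22, SE 0.05, adjusted p 0.00226) than in siIGF2BP1, and MRPL17 higher in siIGF2BP2 than in siIGF2BP1 (0.17, SE 0.05, adjusted p 0.0246). Without 1 library at a time, 5 or 6, 1 to 4, and 0 or 1 members were called in the 3 comparisons.

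For decay, the question was whether a knockdown changed the slope over 6 h. No member was called in any knockdown, where 0.0152%, 0% and 0.0228% of all genes were called in siIGF2BP1, siIGF2BP2 and siIGF2BP3 (edgeR, adjusted p under 0.05). DESeq2 called 1, 0 and 1 members. Unadjusted p-values below 0.05 were found for 16, 4 and 20 members, 20.8%, 5.19% and 26% of those tested, where 10.9%, 6.82% and 16.1% of all genes were. The medians of the slope difference, 0.19, 0.15 and 0.22 on the log2 scale, lay beside 0.19, 0.17 and 0.22 for all genes. With TMM scaling the member medians were 0.00, -0.05 and -0.01. Single libraries moved the medians of members and of all genes. In siIGF2BP2 they were 0.03 and 0.04 without 6 h replicate 2 and 0.23 and 0.22 without 6 h replicate 1. They were 0.09 and 0.09 there without siControl 0 h replicate 1, 0.24 and 0.25 without 0 h replicate 2, and 0.07 and 0.12 without 6 h replicate 2. In siIGF2BP1 they were 0.30 and 0.27 without siControl 0 h replicate 2. Median half-lifetimes of members were 13 h in siIGF2BP1 (10.6 to 16.1 h over the library choices), 9.97 h in siIGF2BP2 (8.28 to 11 h) and 14.8 h in siIGF2BP3 (10.5 to 22.8 h), beside 8.32, 7.11 and 8.59 h for all genes.

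MRPL50 came closest to a call. It kept 41.2% and 42.0% at 6 h in siIGF2BP1, 31.8% and 36.2% in siIGF2BP2 and 38.6% and 40.8% in siIGF2BP3. In siControl it kept 28.3% and 26.9%, below all 6 knockdown libraries on the ERCC scale. On that scale the median slope difference of all genes, given above, was also positive in each knockdown. The share of all genes with this pattern was not counted. The slope differences of MRPL50 were 0.59 (SE 0.12, p 5.10e-05 unadjusted in edgeR across all genes, adjusted p 0.167), 0.30 (SE 0.12, adjusted p 0.643) and 0.52 (SE 0.12, adjusted p 0.191). MRPL50 passed the threshold in siIGF2BP1 and siIGF2BP3 with DESeq2 (adjusted p 0.0156 and 0.0265), with the change from 0 to 6 h alone (0.00257 and 0.00907) and without siControl 0 h replicate 2. Without that library 1 member was called in siIGF2BP1 and 6 in siIGF2BP3. With TMM scaling the MRPL50 difference was 0.40 in siIGF2BP1 (adjusted p 0.0702) and 0.30 in siIGF2BP3 (adjusted p 0.839), and with library-size scaling 0.41 (adjusted p 0.0307) and 0.33 (adjusted p 0.284). Its half-lifetime was 4.66 h in siIGF2BP1 (4.47 to 4.86 h), 3.61 h in siIGF2BP2 and 4.14 h in siIGF2BP3 (3.71 to 4.69 h), against 3.17 h in siControl (2.85 to 3.60 h).

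Other named slope differences had wider errors. MRPL46 was at 0.50 (SE 0.19, adjusted p 0.423) in siIGF2BP1 and 0.45 (SE 0.19, adjusted p 0.290) in siIGF2BP3, and MRPL45 at 0.43 (SE 0.20, adjusted p 0.303) in siIGF2BP3. In siIGF2BP2 the highest values were those of MRPL39 (0.31), MRPS34 (0.30) and MRPL28 (0.30), with SE of 0.13 to 0.20. The most negative were MRPS17 in siIGF2BP2 (-0.65, SE 0.50) and MRPL53 in siIGF2BP3 (-0.68, SE 0.50), both thinly covered. MRPL14 stood at -0.01 (SE 0.13) in siIGF2BP1 and MRPS14 at -0.09 (SE 0.16) in siIGF2BP2.

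**Figure D5:**
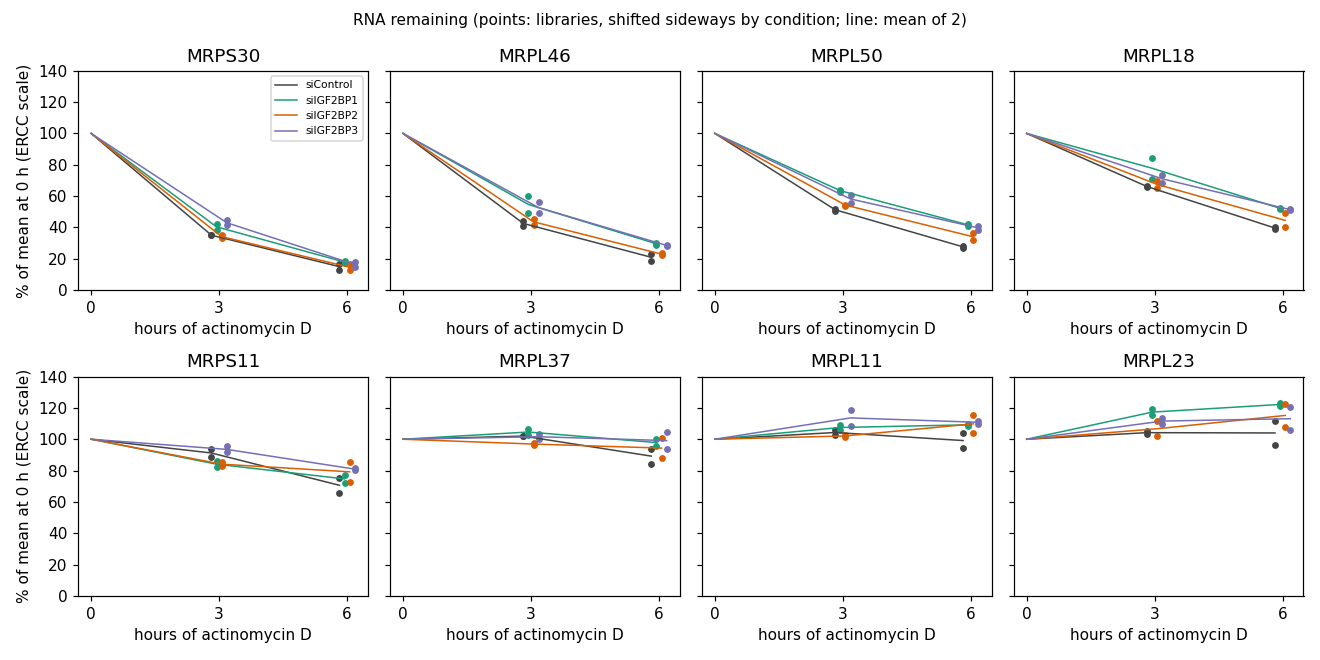
RNA left after 3 and 6 h of actinomycin D as a percentage of the 0 h mean of the same condition (ERCC scale), for 8 members, with a point for each library and lines through the means. MRPS30 and MRPL46 fall steeply in every condition, MRPL11 and MRPL23 do not fall, and MRPL50 in siControl lies below the knockdowns at 6 h.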

How the data were processed

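The values are raw read counts per gene, which the authors deposited for 24 libraries. Per the labels and the study's methods, ERCC RNA was added in proportion to total RNA, polyadenylated RNA was sequenced single-end, and reads were trimmed with Trimmomatic 0.39, aligned to hg38 with HISAT2 2.1.0 (versions from the submitters' processing notes) and counted with HTSeq on GENCODE release 29. Overlap and multi-mapping settings were not given in the sources used here, so members that share sequence with neighbours or with 79 named pseudogenes are uncertain. The HTSeq summary rows (13.6% to 17.1% of each library) name no gene and were left out.

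From these counts, edgeR 4.0.16 quasi-likelihood tests (R 4.3.3, two-sided, Benjamini-Hochberg adjustment, threshold 0.05) were fitted to the 13136 genes that reached 1 CPM in 2 or more libraries. Levels at 0 h used 12 group means and TMM scaling. Decay used a slope on time for each condition, given as log2 change over 6 h, and a model of group means for late against early loss, both scaled by total ERCC reads. First-order decay rates from 0 to 3 h and from 0 to 6 h were averaged, on mean ERCC-scaled levels, to give the half-lifetime. ERCC totals had a counting error of 0.290% to 0.443% (CV). They correct neither cell number nor RNA recovery. Lengths and positions are from GENCODE release 44 on hg38.

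Named members are the 4 highest and 4 lowest levels, the 6 largest and 6 smallest losses, up to 6 called rises and 6 called falls per comparison at 0 h, the 3 largest and 3 smallest slope differences, the called and most extreme late against early differences, the MRPS18 relatives and members with a listed role. Members, lists and this rule were chosen with earlier results of these data known, and the promoter and gene-start descriptions were added after values had been seen. In simulated counts, 90.0% of 200 genes changed by 1 on the log2 scale were recovered for siIGF2BP1 against siControl at 0 h and 61.5% for the slope difference. The alternatives were DESeq2 1.42.0, other scalings and filters, smaller fits, a replicate block and fits without each library. The replicates of each group differed by more than sampling noise.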

Additional observations from a re-analysis of the deposited data

Results flagged for a closer look

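The results below are those in which the effects of 2 knockdowns at 0 h differed by the direct edgeR test (adjusted p under 0.05 over all genes). Each group has 2 libraries, too few for a check of single outlying samples, and the 3 comparisons share libraries.

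For siIGF2BP2 minus siIGF2BP1, the log2 differences were -0.78 for MRPL53, -0.30 for MRPS30, -0.27 for MRPL58, -0.19 for MRPL48, -0.15 for MRPS22, -0.14 for MRPS9 and -0.12 for MRPS5, and 0.17 for MRPL17 and 0.22 for MRPL10. For siIGF2BP3 minus siIGF2BP1 they were -0.23 for MRPL41, -0.23 for MRPL24, -0.22 for MRPS30, -0.14 for MRPS5 and 0.22 for MRPL10. For siIGF2BP3 minus siIGF2BP2 they were 0.20 for MRPL58 and 0.77 for MRPL53, whose 0 h level was at most 4.46 CPM in any library.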

How the results depend on the processing

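Members falling in siControl numbered 67, but 22 with TMM and 39 with library-size scaling, and called late against early differences 4, but 33 and 23. Small uncalled losses became called rises with TMM and library-size scaling for MRPL13 (0.70 and 0.38), MRPL37 (0.70 and 0.38), MRPL33 (0.73 and 0.41), MRPL24 (0.84 and 0.52) and MRPL11 (0.85 and 0.53). With ERCC scaling at 0 h, siIGF2BP1 had 3 called members, siIGF2BP3 3, and the direct comparisons 3, 1 and 0. Without a count filter siIGF2BP2 had 3 and siIGF2BP3 3. With only the libraries compared, siIGF2BP2 had 12 (7 higher, 5 lower) and siIGF2BP3 9. Slope differences gave 1 member in siIGF2BP1 with library-size scaling, DESeq2 or 0 to 6 h alone, and in siIGF2BP3 1 with DESeq2 and 2 with 0 to 6 h alone. The causes were not tested.

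Leaving out 1 library gave 7 to 11, 2 to 4 and 2 to 4 called members in the 3 knockdowns at 0 h, 5 to 6, 1 to 4 and 0 to 1 in the direct comparisons, 61 to 72 falls in siControl, 0 to 11 late against early differences, 0 to 1, 0 to 0 and 0 to 6 slope differences, and a median half-lifetime of 7.98 to 11.95 h. A group left with 1 library is assumed to vary like the others. These counts are given without a share of all genes and are not read as traits of the members. TMM scaling gave no median half-lifetime, since most members then did not fall. The ratio of the 90th to the 10th percentile of levels was 9.06 per length and 5.88 as CPM. The filters on the direct comparisons, a length over all exons (9.05) and late minus early loss in siIGF2BP2 without each library were chosen after seeing the data.

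A replicate block gave 19, 7 and 5 called members at 0 h, 10, 5 and 3 in the direct comparisons, 67 falls, 4 late against early differences and 0 slope differences. Over all 66 pairs of groups, 6 had a correlation of deviations by replicate number over 0.1 (-0.06 to 0.28). Pairs of time points within a condition, which may share a plate, were not counted apart. Whether replicate numbers pair the libraries there is therefore not settled by this count.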

Other observations

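The timing of member loss was also read in the knockdowns. In siIGF2BP2 cells 51 members fell in the first 3 h, where 67.2% of all genes fell, and 43 between 3 and 6 h, where 36.9% of all genes fell. The member medians were -0.32 and -0.26 on the log2 scale, and those of all genes -0.48 and -0.21. In siIGF2BP1 the member medians were -0.21 and -0.33, and in siIGF2BP3 -0.20 and -0.27. Late minus early loss, from mean levels on the ERCC scale, was above 0 in 54 of 77 members in siIGF2BP2, where 83.3% of all genes were above 0. This count rested on 1 library: without siIGF2BP2 6 h replicate 2 it was 30 members and 69.0% of all genes, and without 6 h replicate 1 63 members and 89.2%. The ERCC factors of these 2 libraries were 1.02 and 1.17. With TMM scaling, the median late minus early loss of members was -0.21 in siIGF2BP2, beside -0.23 in siControl, -0.21 in siIGF2BP1 and -0.17 in siIGF2BP3. The difference in timing between conditions was not tested.

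The reads of all members together made up 4476 and 4517 CPM in siControl at 0 h and 4655 and 4658 in siIGF2BP1, 4596 and 4608 in siIGF2BP2 and 4587 and 4690 in siIGF2BP3. At 6 h they made up 4025 and 4062 in siControl, 4275 and 4302 in siIGF2BP1, 4124 and 4164 in siIGF2BP2 and 4218 and 4270 in siIGF2BP3.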
